A study of Mus musculus with 12 samples.

Results

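Nuclear genes of respiratory complexes II to V and of cytochrome c were followed through 12 expression arrays of mouse cerebellar granule neurons (CGNs), the small glutamatergic cells that fill the granular layer of the cerebellum. The members were chosen with earlier results of these data known, and were taken by name. They were Sdha to Sdhd, Cyc1, Cycs and every symbol that begins with Uqcr, with Cox4, Cox5, Cox6, Cox7 or Cox8, or with Atp5. This gave 48 of the 18193 genes that were read, with 4 in complex II, 10 in complex III together with cytochrome c, 17 in complex IV and 17 in complex V. The cells came from B10.RIII pups 7 days old, per the sample labels, and all cultures were kept for 3 days. They fell into 4 groups with 3 arrays each: Ifnb-/- CGNs with 100 U/ml IFN-b for 24 hr, untreated Ifnb-/- CGNs, Ifnb+/+ CGNs with the same IFN-b treatment, and untreated Ifnb+/+ CGNs. The deletion of Ifnb was carried by the whole animal and not by neurons alone. The methods give wild-type mice as Ifnb+/- or Ifnb+/+ littermates, while the labels of these cultures give Ifnb+/+. Whether the 3 cultures of a group were prepared from different litters is stated in neither, and the p-values therefore measure no more than the spread among these cultures.

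Complex II, succinate dehydrogenase, oxidizes succinate in the tricarboxylic acid cycle and hands electrons to ubiquinone. Complex III passes electrons from ubiquinol to cytochrome c, and complex IV, cytochrome c oxidase, passes them on to oxygen. Complexes III and IV pump protons across the inner mitochondrial membrane, and complex V, ATP synthase, lets them return and makes ATP, on which neurons depend for ion pumping and transmission. The subunits of complex II are all encoded in the nucleus, while the other 3 complexes also hold subunits encoded by mitochondrial DNA, which the names above do not take in.

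The value of a gene was the log2 RMA value of the brightest probe set annotated to it and to no other gene, and a log2 difference is the log2 of a fold change. Ifnb1 read between 2.48 and 3.06 on all 12 arrays, near the lower end of the scale, so it does not check the genotypes. The IFN-b target Ifit1 read 9.36 to 10.26 in Ifnb-/- CGNs with IFN-b against 2.65 to 2.92 in untreated Ifnb-/- CGNs, and 9.85 to 11.44 in Ifnb+/+ CGNs with IFN-b against 3.66 to 4.06 in untreated Ifnb+/+ CGNs. Of 14 granule neuron markers, 12 had a mean of at least 5 in each group, as did 9 or 10 of 12 microglial markers, all 9 markers of astrocytes and Bergmann glia and none of 6 endothelial markers. The same held for all 7 markers of meningeal fibroblasts and pericytes and for 6 of 9 markers of the oligodendrocyte lineage. The summed microglial level was 10.59 to 10.84 (log2) in Ifnb-/- CGNs with IFN-b, 10.99 to 11.17 in untreated Ifnb-/- CGNs, 10.35 to 10.99 in Ifnb+/+ CGNs with IFN-b and 11.55 to 11.68 in untreated Ifnb+/+ CGNs. The summed level of the astrocyte and Bergmann glia markers was 12.21 to 13.71 and 12.29 to 12.40 in treated and untreated Ifnb-/- CGNs, and 12.09 to 13.34 and 12.18 to 12.36 in treated and untreated Ifnb+/+ CGNs. The part of these cells in the results on complexes II to V was not tested. Fewer cells of a type and less RNA per cell cannot be told apart in such bulk samples. The 3 arrays of untreated Ifnb+/+ CGNs correlated at 0.971 to 0.993 across genes, with replicates 1 and 2 the farthest apart, while those of untreated Ifnb-/- CGNs correlated at 0.997 to 0.998.

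Promoters of 36 members were found in the RefSeq promoter table (GRCm38.p6), with 39 windows in all, each holding 250 bases before an annotated start and 50 after it. Atp5c1, Atp5d and Atp5j had more than 1 window. The start lay at the edge of the gene span for 30 windows and inside the span for 9 windows of 7 members, both windows of Atp5j among them. A gene was counted as holding a motif where any of its windows did. Known regulators of respiratory chain genes are NRF1, the ETS factor GABP and YY1. The letters of the NRF1 motif, GCGCA and GCGC on the 2 sides of any 1 base, stood on either strand in 10 of the 36 members (27.8%), against 8.61% of 14452 genes on the array with a window. The ETS letters CCGGAAG stood in 13 (36.1%, against 15.0%) and the YY1 letters AAGATGG in 4 (11.1%, against 7.54%). At least 1 of the 3 was found in 22 members (61.1%, against 27.2% of the genes on the array). Overlap between motifs was allowed, and a match of letters is a description of the window only. The 250 bases before the start are shown for 1 gene of complex II and 1 of complex IV that hold both the NRF1 and the ETS letters, and for a pair of complex V genes whose values lay on opposite sides between the untreated genotypes, Atp5g2 with the NRF1 letters and Atp5j with the ETS and YY1 letters in 1 of its 2 windows and none of the 3 motifs in the other. Sequences run 5′ to 3′ on the strand of the gene, and capitals mark the motifs on either strand.
Sdhd, chr9:50603850-50604099, minus strand: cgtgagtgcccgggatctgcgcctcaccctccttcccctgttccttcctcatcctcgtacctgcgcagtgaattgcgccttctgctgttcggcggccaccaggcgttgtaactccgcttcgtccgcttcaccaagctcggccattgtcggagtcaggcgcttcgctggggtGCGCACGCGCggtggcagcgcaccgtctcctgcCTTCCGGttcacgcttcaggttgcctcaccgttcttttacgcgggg
Cox6a1, chr5:115348959-115349208, minus strand: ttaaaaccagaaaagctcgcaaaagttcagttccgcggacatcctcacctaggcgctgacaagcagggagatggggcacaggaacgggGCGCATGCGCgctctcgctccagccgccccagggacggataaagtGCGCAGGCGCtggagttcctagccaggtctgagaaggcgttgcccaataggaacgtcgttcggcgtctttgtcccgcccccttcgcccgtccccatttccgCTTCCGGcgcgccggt
Atp5g2, chr15:102671048-102671297, minus strand: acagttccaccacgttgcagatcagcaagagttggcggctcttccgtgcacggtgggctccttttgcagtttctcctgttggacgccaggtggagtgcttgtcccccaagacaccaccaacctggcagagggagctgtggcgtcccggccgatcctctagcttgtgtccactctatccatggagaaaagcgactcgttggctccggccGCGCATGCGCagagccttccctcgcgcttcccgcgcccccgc
Atp5j, chr16:84835626-84835875, minus strand: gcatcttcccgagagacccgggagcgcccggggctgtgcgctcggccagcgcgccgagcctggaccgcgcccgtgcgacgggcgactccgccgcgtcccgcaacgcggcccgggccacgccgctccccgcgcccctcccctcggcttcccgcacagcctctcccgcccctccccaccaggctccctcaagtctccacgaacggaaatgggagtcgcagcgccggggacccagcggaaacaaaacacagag
Atp5j, chr16:84834977-84835226, minus strand: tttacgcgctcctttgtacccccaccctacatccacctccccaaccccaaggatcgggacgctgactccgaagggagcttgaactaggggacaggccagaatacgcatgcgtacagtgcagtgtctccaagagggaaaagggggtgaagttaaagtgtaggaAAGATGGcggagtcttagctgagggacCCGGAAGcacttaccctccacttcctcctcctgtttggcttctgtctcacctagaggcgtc

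No member of complexes II to V passed an adjusted p of 0.05 in any of the comparisons, but the arrays differed in the level of the members as a group. Each value was set against its gene's mean over all 12 arrays, and the median over the 48 members was taken. This median was 0.16, −0.09 and 0.23 on replicates 1 to 3 of Ifnb-/- CGNs with IFN-b, and −0.09, −0.15 and −0.07 in untreated Ifnb-/- CGNs. It was 0.01, −0.06 and −0.12 in Ifnb+/+ CGNs with IFN-b and 0.27, −0.05 and 0.06 in untreated Ifnb+/+ CGNs. The highest arrays were thus replicate 1 of untreated Ifnb+/+ CGNs and replicates 1 and 3 of Ifnb-/- CGNs with IFN-b. The untreated Ifnb-/- arrays lay below all untreated Ifnb+/+ arrays, with −0.07 the highest Ifnb-/- value and −0.05 the lowest Ifnb+/+ value, and treated and untreated arrays overlapped within each genotype. The same median over all genes stayed between −0.05 and 0.11. It was −0.04, −0.05 and −0.04 in untreated Ifnb-/- CGNs and 0.11, −0.03 and 0.01 in untreated Ifnb+/+ CGNs. Over all genes, too, the untreated Ifnb-/- arrays thus lay below all untreated Ifnb+/+ arrays, and replicate 1 of untreated Ifnb+/+ CGNs was the highest. Over the 36 complex I subunits this median was 0.20, −0.09 and 0.29 in Ifnb-/- CGNs with IFN-b and 0.23, −0.09 and 0.03 in untreated Ifnb+/+ CGNs, in the same order as for complexes II to V.

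**Figure D1:**
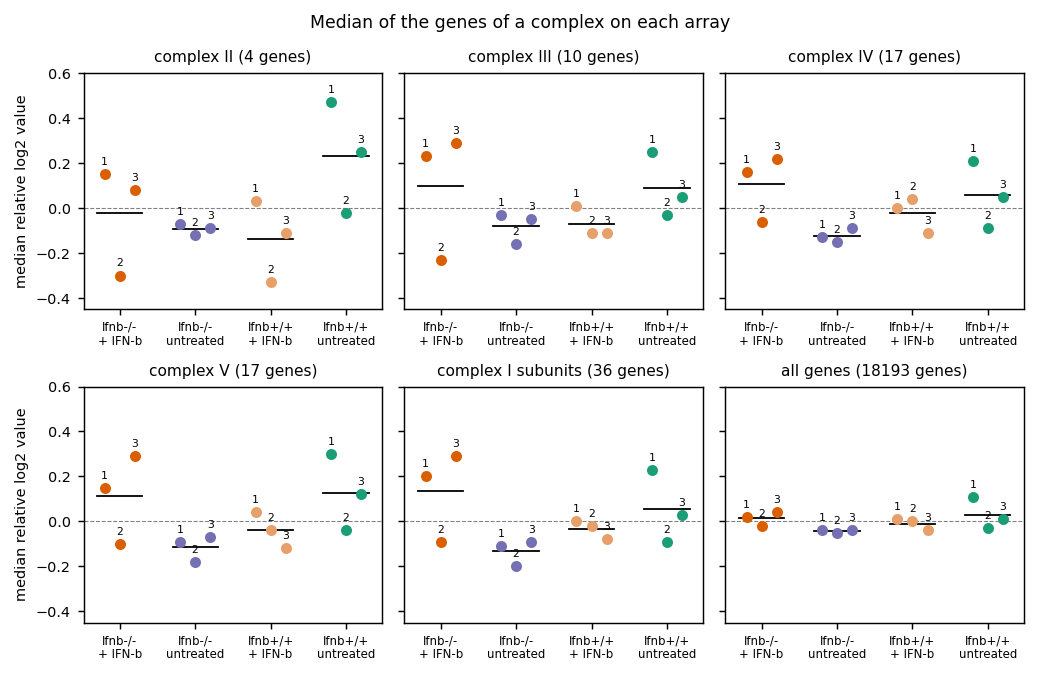
Median over the genes of a complex of the log2 value minus the gene's mean over 12 arrays (y axis, relative log2) for each array (points, numbered by replicate) of the 4 groups (x axis), with the mean of 3 arrays as a line. Untreated Ifnb-/- arrays lie between −0.18 and −0.03 in complexes II to V, and untreated Ifnb+/+ replicate 1 reaches 0.47 in complex II.

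The spread between arrays differed between groups. The median SD of the members was 0.18 in Ifnb-/- CGNs with IFN-b, 0.06 in untreated Ifnb-/- CGNs, 0.13 in Ifnb+/+ CGNs with IFN-b and 0.21 in untreated Ifnb+/+ CGNs, against 0.15, 0.09, 0.17 and 0.20 over all genes in the same order. In untreated Ifnb+/+ CGNs replicate 1 read above replicate 2 in 38 members (79.2%, against 63.7% of all genes), and replicate 3 lay between them in 41 (85.4%, against 69.1%). The median distance of the members from the untreated Ifnb-/- mean was 0.45 for replicate 1, 0.06 for replicate 2 and 0.26 for replicate 3, so the difference between the untreated genotypes rested on replicates 1 and 3. Over all genes these distances were 0.36, 0.10 and 0.19. In Ifnb-/- CGNs with IFN-b replicate 2 was the lowest of its group in 40 members (83.3%, against 46.5% of all genes). That array also had the highest summed level of the astrocyte and Bergmann glia markers, 13.71 (log2) with all 9 markers above their mean, against 12.31 and 12.21 on replicates 1 and 3 of its group, and their part in the result was not tested. Without it the median difference of the members for IFN-b in Ifnb-/- CGNs was 0.31. In Ifnb+/+ CGNs with IFN-b the summed level was 12.09, 12.81 and 13.34.

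**Figure D2:**
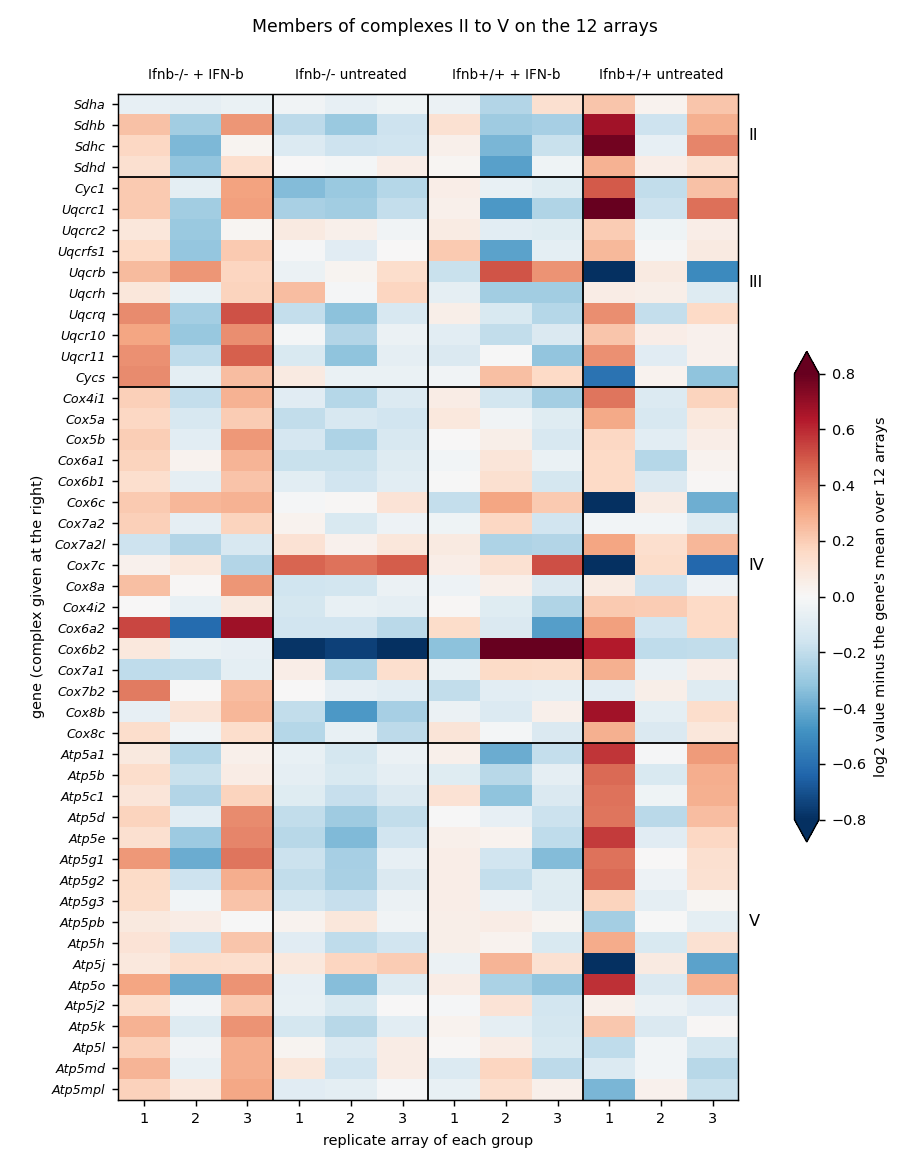
Heat map of the 48 members (rows, by complex) on the 12 arrays (columns, by group and replicate), colored by the log2 value minus the gene's mean over all arrays. Most members are high on untreated Ifnb+/+ replicate 1, while Uqcrb, Cycs, Cox6c, Cox7c and Atp5j are low there.

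Loss of Ifnb went with values that were lower on average for most members in untreated cultures, and none passed the test. The median log2 difference of Ifnb-/- from Ifnb+/+ was −0.20 over the 48 members and −0.09 over all genes, with 37 members below 0 (77.1%) and 11 above, against 65.5% of all genes below 0. None of the 48 members was called at an adjusted p under 0.05 in the limma fit over all genes, where 0.115% of genes were called, and the smallest adjusted p was 0.154. At an unadjusted p under 0.05, 12 members were lower (25.0%, against 12.8% of all genes) and 4 higher (8.33%, against 8.4%). The unpaired t-test of the methods gave only 3 of the 48 members at that threshold, a smaller share than the 12.1% of all genes. The arrays did not overlap for 17 members that were lower (35.4%, against 18.1% of all genes) and 2 that were higher (4.17%, against 10.1%). Without replicate 2 of untreated Ifnb+/+ CGNs, 14 members passed, 10 lower and 4 higher, and so did 21.1% of all genes.

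All 4 genes of complex II lay below in Ifnb-/- CGNs with no overlap of arrays, as did 18.1% of all genes. Sdhc, a membrane anchor of the complex, read 9.30, 9.24 and 9.25 in untreated Ifnb-/- CGNs and 10.18, 9.34 and 9.80 in untreated Ifnb+/+ CGNs, a difference of −0.51 (SE 0.20, adjusted p = 0.207). Sdhb, the iron-sulfur subunit, read 10.03, 9.94 and 10.07 in Ifnb-/- CGNs and 10.91, 10.07 and 10.52 in Ifnb+/+ CGNs, which gave −0.49 (SE 0.21, adjusted p = 0.222). In both genes the Ifnb-/- arrays were tight, and the Ifnb+/+ arrays ran down to a replicate 2 just above them. The flavoprotein Sdha and the second anchor, Sdhd, differed by −0.20 and −0.14. Sdhb lies on chromosome 4, as does Uqcrh of complex III and the deleted gene itself (Ifnb1, chr4:88522025-88522794, GRCm38.p6), and the 48 members lie on 18 chromosomes in all.

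In complex III, Uqcrc1, a core subunit, had the lowest difference of the complex. It read 9.33, 9.31 and 9.40 in untreated Ifnb-/- CGNs and 10.44, 9.42 and 10.03 in untreated Ifnb+/+ CGNs, a difference of −0.62 (SE 0.24, adjusted p = 0.202). Cytochrome c1, Cyc1, read 10.16, 10.21 and 10.28 in Ifnb-/- CGNs and 11.00, 10.31 and 10.74 in Ifnb+/+ CGNs, which gave −0.47 (SE 0.16, adjusted p = 0.193). Neither gene had overlapping arrays, and again replicate 2 of Ifnb+/+ CGNs lay next to the Ifnb-/- arrays. Uqcrb, the ubiquinone-binding small subunit, went the other way, with 10.96, 11.03 and 11.15 in Ifnb-/- CGNs and 9.88, 11.08 and 10.50 in Ifnb+/+ CGNs (0.57, SE 0.25, adjusted p = 0.227). Its groups overlapped through that same replicate 2. Without replicate 1 of untreated Ifnb+/+ CGNs the differences of Sdhc, Sdhb and Uqcrc1 shrank to −0.30, −0.28 and −0.38 and that of Uqcrb to 0.26, while without replicate 2 that of Uqcrb was 0.86.

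In complex IV 14 of 17 genes lay below 0 and 3 above, with a median of −0.16, and in complex V 12 of 17 lay below 0, with a median of −0.25. Over all genes 65.5% lay below 0, with a median of −0.09, so the count in complex V was near the share of all genes. Cox6c, a small subunit of cytochrome c oxidase, read 10.63, 10.65 and 10.75 in untreated Ifnb-/- CGNs and 9.77, 10.71 and 10.25 in untreated Ifnb+/+ CGNs (0.44, SE 0.20, adjusted p = 0.235). Atp5j, coupling factor 6 of the ATP synthase stalk, read 10.51, 10.60 and 10.63 in Ifnb-/- CGNs and 9.63, 10.50 and 10.00 in Ifnb+/+ CGNs (0.54, SE 0.18, adjusted p = 0.185). Atp5g2, which encodes the ring-forming subunit c, read 9.71, 9.65 and 9.79 in Ifnb-/- CGNs and 10.36, 9.87 and 10.03 in Ifnb+/+ CGNs (−0.37, SE 0.15, adjusted p = 0.212). Cox6c thus overlapped between the genotypes, while Atp5j and Atp5g2 did not. Among the alpha to epsilon subunits of the synthase, alpha, gamma and epsilon (Atp5a1, Atp5c1 and Atp5e) were lower with no overlap. The arrays of beta and delta (Atp5b and Atp5d) overlapped. Without replicate 1 of untreated Ifnb+/+ CGNs the differences of Cox6c, Atp5j and Atp5g2 were 0.20, 0.33 and −0.23.

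**Figure D3:**
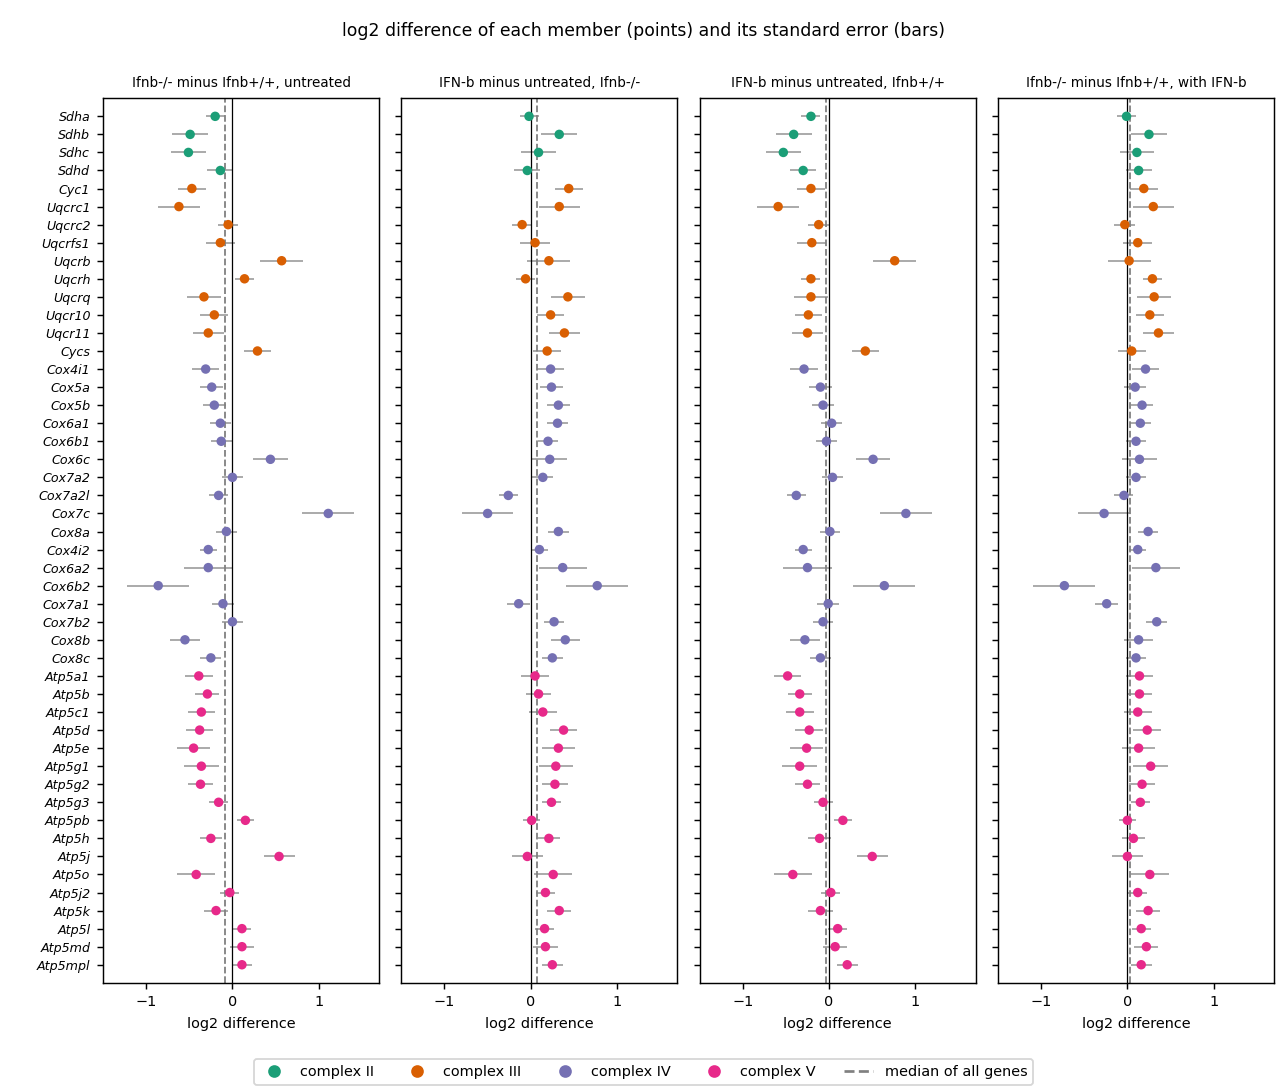
The log2 difference of each member (points, by complex) with its standard error (bars) in 4 comparisons (panels), beside the median of all genes (dashed line). The differences cluster below 0 between the untreated genotypes (37 of 48) and above 0 for IFN-b in Ifnb-/- CGNs (40 of 48), and none passed the test.

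In Ifnb-/- CGNs, IFN-b went with values that were higher on average for most members, and again none passed. The median difference of IFN-b-treated from untreated cultures was 0.22 over the members and 0.07 over all genes, with 40 members above 0 (83.3%, against 63.6% of all genes) and 8 below. None of 48 was called, where 1.67% of genes were, and the smallest adjusted p was 0.229. At an unadjusted p under 0.05, 9 members were higher (18.8%, against 9.16% of all genes) and 1 lower (2.08%, against 5.44%). The arrays did not overlap for 13 members that were higher (27.1%, against 20.3%) and 2 that were lower (4.17%, against 12.6%). Complex IV held 8 of the 13, and also the 2 that were lower, Cox7a2l and Cox7c. Of the 8, 3 were isoforms known mainly from other tissues, Cox6b2, Cox8b and Cox8c. Cox6b2, Cox8b and Cox7c read low, with means of 4.07, 3.44 and 4.92 over all arrays. Centring each array on its median lowered the members' median to 0.12 and that of all genes to −0.03, and left 34 members above 0.

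Cyc1 read 10.72, 10.43 and 10.83 in Ifnb-/- CGNs with IFN-b and 10.16, 10.21 and 10.28 in untreated Ifnb-/- CGNs, a difference of 0.44 (SE 0.16, adjusted p = 0.235). In complex IV, Cox8a, the smallest ubiquitous subunit, read 10.14, 9.91 and 10.25 with IFN-b and 9.74, 9.75 and 9.85 without (0.32, SE 0.12, adjusted p = 0.229). Cox6a1 read 12.52, 12.37 and 12.61 with IFN-b and 12.16, 12.16 and 12.24 without (0.31, SE 0.12, adjusted p = 0.25). All 3 genes were separated between the groups, with replicate 2 of the treated cultures the nearest to the untreated ones. Atp5d, the delta subunit of the synthase, was likewise separated, at 10.85, 10.59 and 11.05 with IFN-b and 10.48, 10.39 and 10.48 without (0.38, SE 0.16, adjusted p = 0.307). Uqcrq and Atp5k, small subunits of complexes III and V, differed by 0.43 and 0.33 (adjusted p = 0.343 and 0.293), and their groups overlapped through replicate 2. Complex II had a median of 0.03, with 0.33 for Sdhb and 0.09 for Sdhc, and the medians of complexes III, IV and V were 0.22, 0.24 and 0.21. A difference between complexes was not tested.

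In Ifnb+/+ CGNs the differences with IFN-b were mostly below 0. The members' median was −0.16 and that of all genes −0.03, with 34 members below 0 (70.8%, against 56.0% of all genes) and 14 above. None was called, where 3.14% of genes were, and the smallest adjusted p was 0.0952, for Cox7a2l. At an unadjusted p under 0.05, 6 members were lower (12.5%, against 11.1%) and 5 higher (10.4%, against 8.81%). The arrays did not overlap for 4 that were lower (8.33%, against 9.28%) and 1 that was higher (2.08%, against 6.67%), so these shares lay near those of all genes. Without replicate 2 of untreated Ifnb+/+ CGNs, 10 members passed, 5 in each direction, beside 16.0% of all genes.

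Cox7a2l, a supercomplex assembly factor related to the complex IV subunit Cox7a, read lower with IFN-b in both genotypes. It read 9.61, 9.29 and 9.30 in Ifnb+/+ CGNs with IFN-b and 9.85, 9.67 and 9.80 in untreated Ifnb+/+ CGNs (−0.38, SE 0.11, adjusted p = 0.0952). In Ifnb-/- CGNs it read 9.37, 9.30 and 9.41 with IFN-b and 9.65, 9.57 and 9.63 without (−0.26, SE 0.11, adjusted p = 0.31). Neither pair of groups overlapped, and without replicate 1 of Ifnb+/+ CGNs with IFN-b Cox7a2l was called for Ifnb+/+, as were 5.94% of all genes. Atp5a1, the alpha subunit of ATP synthase, read 11.20, 10.76 and 10.97 in Ifnb+/+ CGNs with IFN-b and 11.73, 11.15 and 11.50 in untreated ones (−0.48, SE 0.16, adjusted p = 0.128), and the groups overlapped. Sdhc differed by −0.53 (SE 0.20, adjusted p = 0.171) and Sdhd by −0.30 (SE 0.15, adjusted p = 0.286), the second with no overlap.

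Uqcrb, Cycs, Cox6c and Atp5j read higher on average with IFN-b in Ifnb+/+ CGNs, and all 4 overlapped between the groups. Uqcrb read 10.83, 11.51 and 11.37 in Ifnb+/+ CGNs with IFN-b and 9.88, 11.08 and 10.50 in untreated ones (0.76, SE 0.25, adjusted p = 0.131). Cycs, which encodes cytochrome c itself, read 10.03, 10.30 and 10.22 in Ifnb+/+ CGNs with IFN-b and 9.47, 10.09 and 9.74 in untreated ones. It differed by 0.42 (SE 0.16, adjusted p = 0.184), Cox6c by 0.51 (adjusted p = 0.188) and Atp5j by 0.50 (adjusted p = 0.154). Without replicate 1 of untreated Ifnb+/+ CGNs the differences of Uqcrb, Cycs, Cox6c and Atp5j were 0.45, 0.27, 0.28 and 0.29. In each of them replicate 1 of untreated Ifnb+/+ CGNs was the lowest of all 12 arrays. They belong to 10 members that read lower in replicate 1 than in replicate 2 of untreated Ifnb+/+ CGNs, the others being Cox7c, Cox7b2, Atp5pb, Atp5l, Atp5md and Atp5mpl. With IFN-b in Ifnb+/+ CGNs these 10 had a median difference of 0.31 and the other 38 one of −0.22. In Ifnb-/- CGNs, whose arrays had no part in that split, the medians were 0.18 and 0.24. The groups of genes were formed from these values, so no test was made of them.

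**Figure D4:**
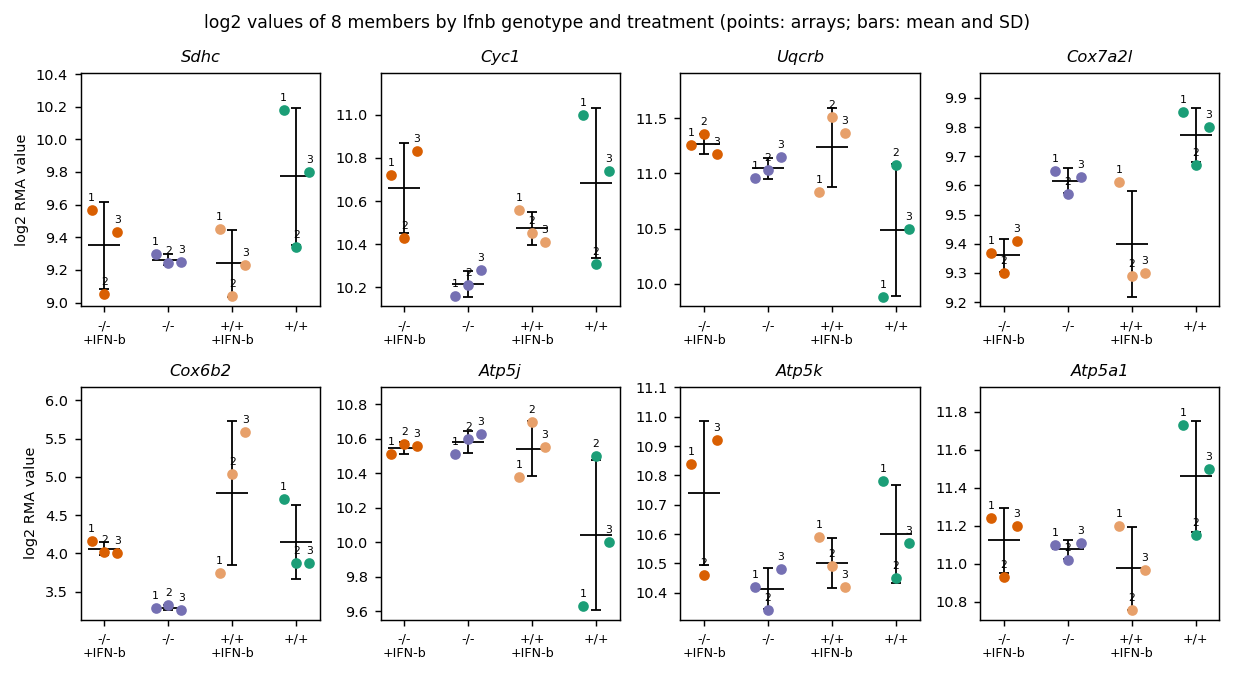
log2 RMA values (y axis, a separate scale for each gene) of 8 members on each array (points, numbered by replicate) of the 4 groups (x axis), with the mean and SD of 3 arrays in black. In untreated Ifnb+/+ CGNs replicate 1 is the highest array for Sdhc (10.18) and Cyc1 (11.00) and the lowest for Uqcrb (9.88) and Atp5j (9.63).

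Between the genotypes with IFN-b most members were higher on average in Ifnb-/- CGNs, and none passed the test. The median difference of Ifnb-/- from Ifnb+/+ was 0.14 over the members and 0.03 over all genes, and 42 members were above 0 (87.5%, against 56.9% of all genes). None was called, where 0.0605% of genes were, with a smallest adjusted p of 0.697. At an unadjusted p under 0.05, 2 members, Uqcrh and Cox7b2, were higher (4.17%, against 1.88%) and none lower, against 3.06% of all genes. The arrays did not overlap for Uqcrh and Cox7b2, which were higher (4.17%, against 4.64%), and for Cox7a1, which was lower (2.08%, against 3.47%). Cox7b2 and Cox7a1 are isoforms known mainly from other tissues. Their means over all arrays were 2.15 and 2.93, near the lower end of the scale. Cox7b2 read 2.56, 2.14 and 2.39 in Ifnb-/- CGNs with IFN-b and 1.95, 2.06 and 2.07 in Ifnb+/+ CGNs with IFN-b. Uqcrh, the hinge protein of complex III, read 10.45, 10.31 and 10.54 in Ifnb-/- CGNs with IFN-b and 10.29, 10.08 and 10.08 in Ifnb+/+ CGNs with IFN-b (0.29, SE 0.11, adjusted p = 0.867). Uqcr11 differed by 0.36, Sdhb by 0.25, Cox8a by 0.24, Atp5k by 0.24, Atp5md by 0.22, Cox5b by 0.17 and Sdhd by 0.13, each with an adjusted p of 0.988.

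The difference of the IFN-b effect between genotypes, Ifnb-/- minus Ifnb+/+, had a median of 0.33 over the members and 0.11 over all genes, with 41 members above 0 (85.4%). The share of all genes above 0 was not counted, but with a median of 0.11 most of them lay above 0 as well. No member passed this interaction test, where 0.022% of genes did, and the smallest adjusted p was 0.323. At an unadjusted p under 0.05, 17 members were above 0 (35.4%, against 10.1% of all genes) and 1, Cox7c, below (2.08%, against 5.21%), at −1.38 with an SE of 0.42. The highest value was that of Uqcrc1, at 0.92 (SE 0.33), which differed by 0.33 with IFN-b in Ifnb-/- CGNs and by −0.59 with IFN-b in Ifnb+/+ CGNs. Sdhb was at 0.74 (SE 0.30), Cyc1 at 0.65 (SE 0.23) and Atp5d at 0.61 (SE 0.23), genes of complexes II, III and V. All 4 comparisons and the interaction share arrays, so their directions are not independent of each other. Without replicate 2 of untreated Ifnb+/+ CGNs, 6 members passed the interaction test, 4 above 0 and 2 below, beside 6.8% of all genes.

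Subunit c of ATP synthase is encoded by Atp5g1, Atp5g2 and Atp5g3, whose mature proteins are the same. Atp5g1 read 9.54, 8.80 and 9.62 in Ifnb-/- CGNs with IFN-b, 9.02, 8.93 and 9.13 in untreated Ifnb-/- CGNs, 9.25, 9.04 and 8.85 in Ifnb+/+ CGNs with IFN-b and 9.63, 9.20 and 9.32 in untreated Ifnb+/+ CGNs. Atp5g3 ranged from 11.83 to 12.08, 11.67 to 11.81, 11.75 to 11.91 and 11.78 to 12.03 in the same 4 groups. Both were separated in 1 comparison only, Atp5g1 between the untreated genotypes (−0.36, adjusted p = 0.308) and Atp5g3 for IFN-b in Ifnb-/- CGNs (0.24, adjusted p = 0.339). In all 3 genes the differences had the same signs in each of the 4 comparisons, below 0 between the untreated genotypes and for IFN-b in Ifnb+/+ CGNs and above 0 in the others. The medians over the 48 members had these signs as well, and the comparisons share arrays. The beta subunit Atp5b, which carries the catalytic sites, differed by −0.29 between the untreated genotypes and by −0.34 for IFN-b in Ifnb+/+ CGNs (adjusted p = 0.257 and 0.22), and both pairs of groups overlapped. Over the 12 arrays the members with the narrowest range were Cox7a2 (11.36 to 11.70), Atp5pb, subunit b of the peripheral stalk (10.84 to 11.20), and Atp5j2 (10.80 to 11.16).

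Of the complex IV genes, 7 are isoforms known mainly from other tissues. Cox6a2, Cox7a1 and Cox8b are forms of heart and skeletal muscle, Cox6b2, Cox7b2 and Cox8c are known from testis, and Cox4i2 from lung. Cox6a2 and Cox8c had a mean of at least 5 in every group and the other 5 did not, and muscle markers read below 5 except for 1 of 7 in untreated Ifnb+/+ CGNs, as did 5 of 6 testis markers in every group. Cox6b2, chosen after its values were seen, read 4.16, 4.02 and 4.01 in Ifnb-/- CGNs with IFN-b, 3.29, 3.33 and 3.26 in untreated Ifnb-/- CGNs, 3.75, 5.04 and 5.58 in Ifnb+/+ CGNs with IFN-b and 4.71, 3.87 and 3.88 in untreated Ifnb+/+ CGNs. Untreated Ifnb-/- CGNs were thus below every other array. For IFN-b in Ifnb-/- CGNs the difference was 0.77 (SE 0.36, adjusted p = 0.357), and it passed in a limma fit of these 2 groups alone (adjusted p = 0.00285), which called 7.01% of all genes. Cox6a2 was split within the treated Ifnb-/- cultures, at 6.45, 5.30 and 6.59, against 5.76, 5.76 and 5.70 in untreated ones. Cox8c differed by −0.25 between the untreated genotypes (SE 0.12, adjusted p = 0.253), with 6.14, 6.31 and 6.16 in Ifnb-/- CGNs and 6.65, 6.25 and 6.46 in Ifnb+/+ CGNs, and its arrays overlapped. Cox8b differed by −0.55 between the untreated genotypes (SE 0.17, adjusted p = 0.184), with 3.24, 2.98 and 3.17 in Ifnb-/- CGNs and 4.11, 3.36 and 3.58 in Ifnb+/+ CGNs.

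Cox7c, a small ubiquitous subunit of complex IV that was also chosen after its values were seen, had the highest difference of any member between the untreated genotypes. It read 5.39, 5.36 and 5.41 in untreated Ifnb-/- CGNs and 3.45, 5.07 and 4.30 in untreated Ifnb+/+ CGNs (1.11, SE 0.30, adjusted p = 0.154). With IFN-b it read 4.96, 5.01 and 4.69 in Ifnb-/- CGNs, below the untreated arrays (−0.50, SE 0.30, adjusted p = 0.462), and this passed in a limma fit of those 2 groups alone (adjusted p = 0.0328), the fit that called 7.01% of all genes. In Ifnb+/+ CGNs with IFN-b it read 4.98, 5.05 and 5.44 (0.89, SE 0.30, adjusted p = 0.138).

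Other genes of mitochondrial energy metabolism were counted from lists in the same fits. Of all genes, 1.67% were called for IFN-b in Ifnb-/- CGNs and 3.14% for IFN-b in Ifnb+/+ CGNs. Between the genotypes 0.115% were called untreated and 0.0605% with IFN-b. Of 36 assembly factors of complexes II to V, Higd1a rose with IFN-b in Ifnb-/- CGNs (0.68, SE 0.12, adjusted p = 0.0165), and Cox18, which helps insert a mitochondrially encoded subunit of complex IV, rose with IFN-b in Ifnb+/+ CGNs (0.98, SE 0.17, adjusted p = 0.00875). Of 18 regulators of mitochondrial biogenesis, the coactivator Pprc1 rose with IFN-b in Ifnb-/- CGNs (0.76, SE 0.15, adjusted p = 0.0245) and Ppara fell with IFN-b in Ifnb+/+ CGNs (−0.42, SE 0.09, adjusted p = 0.0355). The methods' t-test with Benjamini-Hochberg adjustment called none of these 4 genes (adjusted p = 0.0802, 0.53, 0.061 and 0.279). Leaving out 1 of the 12 arrays ended the call of Higd1a for 5 arrays, of Pprc1 for 5, of Ppara for 9 and of Cox18 for none. Without 1 of the untreated Ifnb-/- arrays only 0.456% to 0.484% of all genes were called for IFN-b in Ifnb-/- CGNs. A fit of only the compared groups also ended the calls of Cox18 and Ppara (adjusted p = 0.133 and 0.26), and averaging all probe sets per gene those of Higd1a and Ppara, at 0.44 and −0.29 (adjusted p = 0.0625 and 0.131). None of 17 genes of the tricarboxylic acid cycle and none of 26 cytosolic ribosomal protein genes passed in any comparison. Of 36 complex I subunits, Ndufs5 alone passed, lower in Ifnb-/- than in Ifnb+/+ CGNs both untreated (−0.92, SE 0.13, adjusted p = 0.0263) and with IFN-b (−0.88, SE 0.13, adjusted p = 0.0449). Both calls were lost in a fit of only the compared groups (adjusted p = 0.056 and 0.423) and in the methods' t-test (adjusted p = 0.141 and 0.977), the untreated one without any of 5 arrays and the treated one without any of 10. With probe sets that name several genes the differences were −0.31 and −0.23 (adjusted p = 0.205 and 0.988).

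Among 16 genes of glycolysis and glucose uptake, the hexokinase Hk2 rose with IFN-b in Ifnb-/- CGNs (1.21, SE 0.14, adjusted p = 0.00104) and in Ifnb+/+ CGNs (0.90, SE 0.14, adjusted p = 0.00408). The glucose transporters Slc2a1 and Slc2a3 fell with IFN-b in Ifnb+/+ CGNs, by 0.92 and 0.89 on the log2 scale (adjusted p = 0.0152 and 0.00339). Of all genes, 1.67% were called for IFN-b in Ifnb-/- CGNs and 3.14% in Ifnb+/+ CGNs. The methods' t-test called no gene of the array for IFN-b in Ifnb+/+ CGNs, and gave adjusted p of 0.0558 and 0.297 for Hk2 in Ifnb-/- and Ifnb+/+ CGNs. A fit of only the compared groups did not call Slc2a1 or Slc2a3 (adjusted p = 0.0749 and 0.0598). The mean over probe sets gave −1.48 for Slc2a3, and the call of Slc2a1 was lost without replicate 3 of untreated Ifnb+/+ CGNs or replicate 2 of Ifnb+/+ CGNs with IFN-b (adjusted p = 0.0644 and 0.0768). Between the untreated genotypes 15 of the 16 lay below 0 in Ifnb-/- CGNs, with a median of −0.39 and none called. Over all genes 65.5% lay below 0, with a median of −0.09. The glycolysis median over the arrays was 0.59, −0.04 and 0.29 in untreated Ifnb+/+ CGNs, in the same replicate order as for complexes II to V.

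Of the members, 30 had further probe sets that name them alone, 48 in all, and 31 of these with a mean of at least 5 covered 22 genes. The sign of the difference was that of the probe set used in 27 of these 31 between the untreated genotypes, 25 for IFN-b in Ifnb-/- CGNs, 23 for IFN-b in Ifnb+/+ CGNs and 26 between the treated genotypes. Probe sets of 1 gene share its RNA and are not replicates.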

How the data were processed

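RNA of 12 CGN cultures was measured on Affymetrix mouse arrays. Before deposition the authors applied quantile normalization and the RMA algorithm in Arraystar, and the deposited values are log2 intensities for 45037 probe sets. The platform annotation gave 34945 of them a single gene, 932 several and 9160 none. All 12 value columns entered as deposited. For every gene the brightest single-gene probe set was kept, by its mean over the arrays (18193 genes). RefSeq (GRCm38.p6) gave positions and promoters.

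The groups of the labels entered limma 3.58.1 (R 4.3.3) as a model with 4 group means and 8 residual degrees of freedom. Variances were moderated by empirical Bayes, and p-values were adjusted by Benjamini-Hochberg across the 18193 genes, with calls at an adjusted p under 0.05. Named were, per comparison and complex, the 2 members with the smallest p and a mean of at least 5, called members, and the tissue-restricted isoforms as a group. Statistics of some further members, among them Cox8b, Atp5g1, Atp5g3 and Atp5b, were given outside this rule. Cox6b2 and Cox7c, between the untreated genotypes and for IFN-b in either genotype, were chosen after their values were seen. So was Uqcrb between the untreated genotypes. The members and lists were chosen with earlier results of these data known.

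The model was run on simulated arrays in which 200 of 18193 genes differed between the untreated genotypes. Noise was drawn independently for each array and gene, with the same SD in all 4 groups. The unequal spread of the real groups and shifts shared by many genes on 1 array were not simulated. The counts therefore do not check the model under those conditions. The model called 18 of 67 genes set 1.5-fold apart, 48 of 67 set 2-fold apart, 64 of 66 set 4-fold apart and 2 of 17993 left equal. The alternatives concerned the reading of genes (a mean over probe sets, separate probe sets, multi-gene probe sets, a minimum mean of 5), the scaling (a second quantile normalization, median centring), the model (weights for arrays, a robust variance trend, a fit of the compared pair of groups, replicate numbers as a block, the methods' t-test, unadjusted p) and the arrays (each left out in turn). The number of arrays limits the precision.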

Additional observations from a re-analysis of the deposited data

How the results depend on the processing

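The limma fit over all arrays called 0 members in each comparison. At an unadjusted p under 0.05 it was 16 between the untreated genotypes, 10 for IFN-b in Ifnb-/- CGNs, 11 for IFN-b in Ifnb+/+ CGNs, 2 between the treated genotypes and 18 for the interaction. With gene-by-gene array weights it was 30, 29, 15, 0 and 26 in the same order, where 43.7%, 21.8%, 18.1%, 1.15% and 22.6% of all genes were called. These weights gave 7.24 to replicate 3 of untreated Ifnb+/+ CGNs and 0.249 to replicate 1, and were chosen after the data were seen, since the default REML weights did not converge (weight 5740 on that replicate 3). The REML weights gave 39, 30, 21, 1 and 33, where 59.8%, 28.1%, 30.8%, 2.12% and 34.6% of all genes were called. A fit of only the compared groups called 2 members for IFN-b in Ifnb-/- CGNs, Cox6b2 and Cox7c, beside 7.01% of all genes, and the methods' t-test with Benjamini-Hochberg adjustment called 1, Cox6b2, beside 1.84%. At the unadjusted threshold of the methods this t-test gave 3, 12, 3 and 2 of the 48 members in the 4 comparisons, where 12.1%, 21.7%, 8.07% and 3.91% of all genes passed. The members' share was thus below that of all genes between the untreated genotypes and for IFN-b in Ifnb+/+ CGNs. It was near that of all genes in the other comparisons. Same-numbered arrays correlated at −0.501 to 0.432 in their deviations from the group means, so the numbers were not taken to pair the cultures. With the replicate block 1 member was called for IFN-b in Ifnb+/+ CGNs, Atp5a1, beside 4.66% of all genes, and no other member's call changed. Between the treated genotypes the block called no gene, and so ended the call of Ndufs5 (adjusted p = 0.0703).

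Leaving out 1 array at a time gave 0 to 14 calls between the untreated genotypes, 0 to 0 for IFN-b in Ifnb-/- CGNs, 0 to 10 for IFN-b in Ifnb+/+ CGNs, 0 to 1 between the treated genotypes and 0 to 6 for the interaction. The counts of 14, 10 and 6 were those without replicate 2 of untreated Ifnb+/+ CGNs, and without replicate 1 of Ifnb+/+ CGNs with IFN-b 2 members were called for IFN-b in Ifnb+/+ CGNs (Cox6b2 and Cox7a2l, beside 5.94% of all genes) and 1 between the treated genotypes (Cox6b2, beside 1.12%). Removal of any untreated Ifnb-/- array ended the calls of Higd1a and Pprc1, as did removal of replicate 3 of Ifnb-/- CGNs with IFN-b, and for Higd1a also of replicate 1 and for Pprc1 of replicate 2 of that group. That of Ppara held only without replicate 2 of Ifnb-/- CGNs with IFN-b, replicate 2 of untreated Ifnb+/+ CGNs or replicate 1 of Ifnb+/+ CGNs with IFN-b. The call of Ndufs5 in untreated cultures ended when any untreated Ifnb-/- array was removed, and without replicate 1 of Ifnb-/- CGNs with IFN-b or replicate 3 of untreated Ifnb+/+ CGNs, and that with IFN-b held only without replicate 1 of untreated Ifnb+/+ CGNs or replicate 1 of Ifnb+/+ CGNs with IFN-b. Without 1 of the untreated Ifnb-/- arrays, fewer genes of the whole array passed as well. Only 0.456% to 0.484% of all genes were then called for IFN-b in Ifnb-/- CGNs, against 1.67% with all arrays. Between the untreated genotypes at most 0.0055% were called, against 0.115%. The differences of Higd1a and Pprc1 were 0.65 to 0.71 and 0.74 to 0.77 in these fits, against 0.68 and 0.76. These alternatives for genes outside the members were read after the data were seen. The members' medians ranged over the arrays left out from −0.27 to −0.14, 0.14 to 0.31, −0.21 to −0.06 and 0.08 to 0.24 in the first 4 comparisons and kept their sign. Centring on the median moved the median of all genes from −0.09 to −0.01 between the untreated genotypes and from 0.07 to −0.03 for IFN-b in Ifnb-/- CGNs. Of the values of named genes under alternatives, 3 changed sign: Sdhc for IFN-b in Ifnb-/- CGNs was −0.02 with centring and −0.02 without replicate 1 of the treated cultures (0.24 at the highest with an array left out), and Sdhd between the treated genotypes was −0.01 without replicate 2 of Ifnb+/+ CGNs with IFN-b (0.28 at the highest). Beyond the values named here, the cause of a change was not tested. With 3 arrays a group, members of low reading such as Cox6b2 and Cox7c have only imprecise differences.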
